A study of Mus with 5 samples.

Results

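RUNX, ETS and GATA proteins are DNA-binding transcription factors that set and hold T cell identity. Runx1, Runx2 and Runx3 bind DNA as partners of Cbfb, and Runx3 is known for silencing Cd4 and driving the cytotoxic programme in CD8 T cells. Ets1, Ets2, Fli1, Etv6 and Elf1 belong to the ETS family, which shares a winged helix-turn-helix DNA-binding domain, and Gata3 is a zinc finger factor needed for T cell development and Th2 differentiation. BATF is an AP-1 family factor that binds with JUN proteins and IRF4, and RARα is the nuclear receptor for retinoic acid (RA).

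Peaks of RARα and BATF binding at these 10 genes were examined in chromatin immunoprecipitation sequencing (ChIP-seq) data from wild-type mouse CD8 T cells. A peak belonged to a gene when the authors' gene annotation of that peak named it, out of 21900 protein-coding genes in the RefSeq table. The genes had 88 of the 15812 BATF control peaks, 50 of the 9899 BATF peaks with RA, 5 of the 1172 RARα control peaks and none of the 597 RARα peaks with RA.

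Splenic naive CD8 T cells had 24 h of stimulation through CD3 and CD28 in the presence of IL-2 and 24 h of rest in 100 U/ml IL-2, after which RA was left out (control) or added at 50 nM for 1 h. The methods give this RA dose, whereas the legend of a supplementary figure of the study gives a lower one for ChIP-seq data. The treatment labels name other interleukins than the methods do, and they do not state whether the cells of the IgG sample received RA. Before peak calling the 2 alignment files of a condition, which may be samples or repeat runs, had been merged, and the same single library from normal rabbit IgG served as background throughout, so each condition gave 1 list with no replicate spread, and conditions were not tested against each other. The RARα pools were of like size, 22655611 fragments in the control and 22475060 with RA. BATF had 23110180 in the control but 16424269 with RA, and the IgG library had 11410673. The BATF pool with RA thus had 71.1% of the control depth. Intervals given here are 95% intervals that cover counting error only. They treat peaks as independent, although neighbouring peaks of a gene need not be. Peaks do not measure expression, and a pooled chromatin sample cannot tell fewer bound cells from less binding per cell. Of the T cell marker genes, Cd8a was named by 16 BATF control peaks, Cd8b1 by 20, Cd3d by 5, Cd3g by 3 and Cd3e by 1, which are 45 assignments of 29 peaks, since neighbouring genes were named by the same peaks. Of the B cell genes, Ms4a1 had 2 and Cd79a had 1, while of the myeloid genes Itgam had 1 and Lyz2 and Csf1r had none.

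All 10 genes had at least 1 BATF peak in both conditions, whereas 48.6% of protein-coding genes had a BATF control peak and 38.3% a BATF peak with RA. Ets1 had the most BATF control peaks, 25, followed by Fli1 with 18, Runx3 with 13, Elf1 with 10 and Runx2 with 9. Gata3 had 5, Runx1 had 4, Ets2 had 3, Etv6 had 2 and Cbfb had 1. Among the 11912 genes named in that list, for which the median was 1 peak, only 1 gene, Foxp1 with 26, had more peaks than Ets1, and 9 genes had more than Fli1. With RA the order began with Ets1 (12), Runx2 and Elf1 (8 each), Fli1 (7) and Runx3 (6), and the other genes had 1 or 2. Cbfb was the only one of the 10 with more BATF peaks with RA than in the control, where 2 short RA peaks lay inside 1 longer control peak. The genes differ in length, and the number of BATF control peaks inside the gene per 100 kb of gene was 18.1 at Ets1, 16.2 at Gata3, 10.7 at Fli1, 8.88 at Elf1 and 8.72 at Runx3. It was 5.36 at Ets2, 2.82 at Runx2, 2.11 at Cbfb, 1.78 at Runx1 and 0.853 at Etv6.

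**Figure D1:**
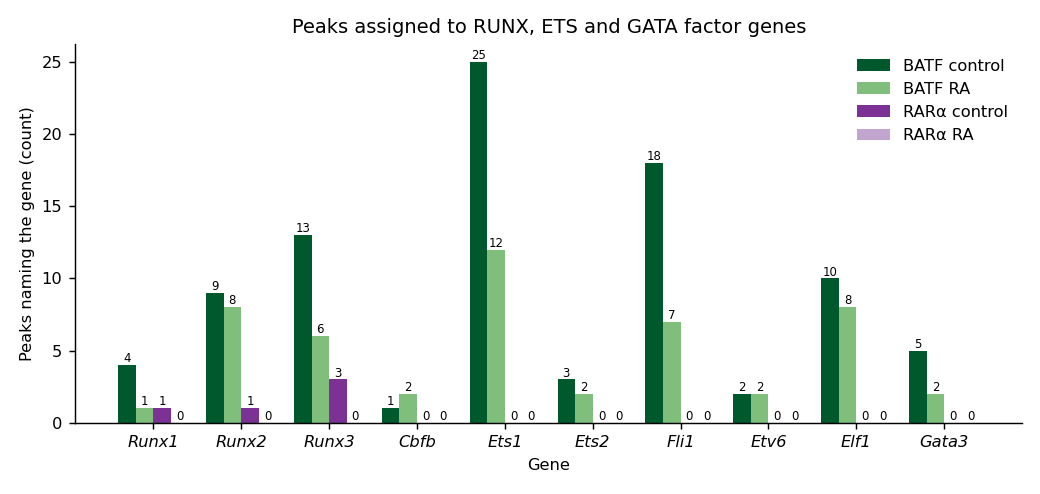
Number of peaks naming each gene (vertical axis) in the BATF control, BATF RA, RARα control and RARα RA lists (bars, with the count above each). Ets1 reaches 25 BATF control peaks and 12 with RA, and the RARα control bars are above 0 only at Runx1, Runx2 and Runx3.

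RARα peaks at these genes were found only in the control and only at the 3 RUNX genes. Runx3 had 3, Runx1 had 1 and Runx2 had 1, while Cbfb, the 5 ETS genes and Gata3 had none. A RARα control peak was present at 7.18% of all protein-coding genes and a RARα peak with RA at 3.19%. The strongest of the 5, upstream of Runx3 at chr4:135108513-135108973 (mm10, as for all positions given), lay 11672 bp before the gene. It had 20 fragments at its summit (12.2 to 30.9) and a fold enrichment over the local IgG level of 5.28. A weaker peak at chr4:135103606-135103853, 16792 bp before Runx3, had 14 fragments (7.65 to 23.5) and a fold of 2.52. The third, at chr4:135206115-135206398 in a CpG island 28125 bp beyond the other end of Runx3, was also assigned to Clic4 and had 13 fragments (6.92 to 22.2) and a fold of 3.61. The single Runx1 peak, at chr16:92825669-92826124, was classed as promoter and had its summit 69 bp inside the end of the gene at which transcription of the longest isoform starts. It had 16 fragments (9.15 to 26.0) and a fold of 3.42. The Runx2 peak, at chr17:44569681-44569965, lay in intron 5 of a non-coding transcript and had 17 fragments (9.90 to 27.2) and a fold of 2.26, over an IgG level 2.41 times its genome-wide background. With medians of 16 fragments and 3.42-fold over these 5 peaks, against 13 and 3.09 over the whole RARα control list, they were of ordinary strength for that list. The deposited -log10 p was 11.0 at the strongest Runx3 site, 5.98 at Runx1 and 5.67 at the Clic4 side of Runx3, but 3.68 at the weaker upstream site of Runx3 and 3.48 at Runx2, and the -log10 q of these last sites was 0. At a p-value of 1e-05 or a q-value of 0.05, Runx2 thus had no RARα peak, and Runx1 and Runx3 were the only members with one.

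None of the 5 RARα control peaks had a RARα peak with RA within 5 kb, the distance used by the study, as compared with 10.2% of all RARα control peaks that had one. The nearest RARα peak with RA was 447733 bp away at Runx2, 4309348 bp at Runx1 and 13187381 bp at Runx3. At the IgG levels of these sites, a call in the RA list would have needed 9 fragments at the Clic4 side of Runx3, 10 and 13 at the upstream sites of Runx3, 12 at Runx1 and 17 at Runx2. The control fragments at the summit were 13, 20, 14, 16 and 17 in that order, at nearly equal depth. At Runx2 the control peak was thus at the lowest count that would be called, and for 4 of the 5 sites the lower bound of the control interval was below the count needed. The exception was the strongest Runx3 site, where the bound of 12.2 was above 10.

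All 5 RARα control peaks shared bases with a BATF control peak, against 53.4% of all RARα control peaks, and 61.9% of all had one within 5 kb. With 5 peaks the share of 100% has a Wilson interval from 56.6%. Of the 5, 4 (80%, 37.6 to 96.4) also shared bases with a BATF peak of the RA list, against 42.5% of all RARα control peaks, a value inside that interval. All 5 had such a peak within 5 kb, against 54.3% of all. The exception to shared bases was the weaker upstream peak of Runx3, where the nearest BATF RA peak was 4592 bp away. The strongest RARα site at Runx3 was also its strongest BATF site. The BATF control peak there, at chr4:135108435-135109207, had 56 fragments, or 2.42 per 1000000 fragments of the pool (FPM), and a fold of 14.6. With RA, where RARα was not called, BATF had 39 fragments, or 2.37 FPM, and a fold of 13.2, in a peak at chr4:135108445-135109172. The ratio of BATF FPM, RA over control, was 0.980 (0.634 to 1.501) at this site, 1.05 (0.641 to 1.69) at the Runx1 promoter, 1.16 (0.649 to 2.07) at the Clic4 side of Runx3 and 0.649 (0.350 to 1.16) at the Runx2 intron site. All 4 intervals included 1.

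**Figure D2:**
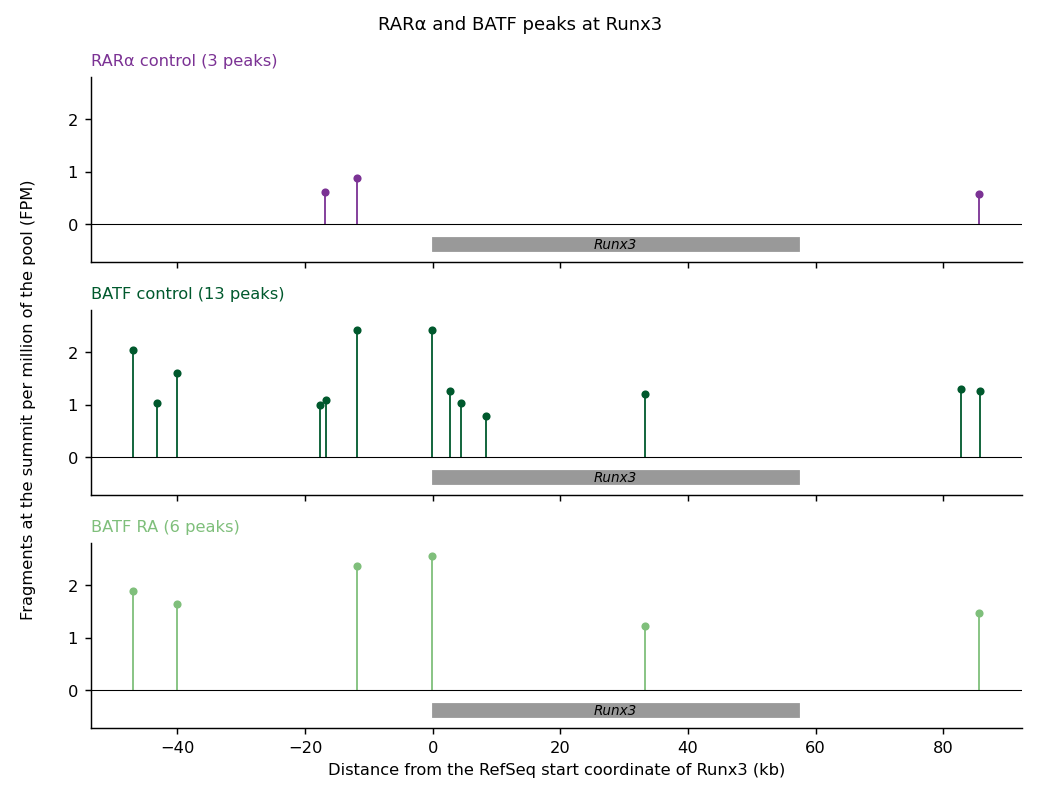
Summit position of each peak assigned to Runx3 (horizontal axis, kb from the RefSeq start coordinate of the gene, grey bar) against FPM at the summit (vertical axis), for RARα control, BATF control and BATF RA. The 3 RARα peaks lie at positions that also have a BATF control peak, and the BATF summits at the strongest RARα site and at the start of the gene have similar heights in both conditions.

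Runx3, at chr4:135120645-135177990, had 8 of its 13 BATF control peaks outside the gene and 5 inside. Upstream of the gene, a second strong site at chr4:135073437-135074033, 46612 bp away, had 47 fragments and a fold of 9.48 in the control. With RA it had 31 fragments and a fold of 8.25, so that its FPM were 2.03 and 1.89. The peak at the start of the gene, at chr4:135119578-135122821, was the longest of the 88 with 3244 bp. It had 56 control fragments, as many as the strongest site, but a fold of only 3.31, since the IgG level there was 5.59 times background. The corresponding RA peak, at chr4:135120040-135120898, had 42 fragments and a fold of 3.65, over an IgG level of 5.33 times background. The other promoter peak, at chr4:135123082-135124406, had a fold of 5.93 in the control and no overlapping peak with RA. Further inside the gene, 28 control fragments (fold 5.73) and 20 RA fragments (fold 5.41) lay at nearly the same summit, 1.21 and 1.22 FPM. In all, 6 of the 13 control peaks shared bases with an RA peak, as did 54.4% of all BATF control peaks, and 11 had one within 5 kb, as did 69.9% of all.

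Runx2, a RUNX factor best known for bone development, had the strongest BATF peak of the 10 genes. It lay at chr17:44727727-44729819, in an intron, and had 101 fragments (4.37 FPM) and a fold of 20.1 in the control. With RA it had 66 fragments (4.02 FPM) and a fold of 17.3, which gives a ratio of 0.919 (0.664 to 1.27). Of its 9 BATF control peaks, 8 shared bases with an RA peak and all 9 had one within 5 kb. The promoter peak of highest fold, at chr17:44735123-44735943, had 23 fragments and a fold of 5.86 in the control and 19 fragments and a fold of 6.33 with RA. This promoter belongs to shorter isoforms and lies inside the gene, which spans chr17:44495987-44814797. Runx1, a RUNX factor required for blood stem cells and thymocytes, was bound most strongly by BATF over its promoter (chr16:92824993-92826233), where 43 control fragments gave a fold of 7.498 and 32 RA fragments one of 6.21. Its 3 other control peaks were intronic, with folds from 3.25 to 4.94, and none of them overlapped an RA peak. Cbfb, at chr8:105170674-105217989, had a single control peak over its promoter, at chr8:105170279-105172106, with 32 fragments and a fold of 7.96. The 2 RA peaks inside it had 20 and 18 fragments and folds of 5.48 and 5.43.

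Ets1 and Fli1 lie beside each other, Fli1 at chr9:32422204-32543432 and Ets1 at chr9:32636241-32757820. Ets1 is a regulator of T cell activation and survival, and Fli1 is an ETS factor of blood and endothelial cells that has been described as a brake on effector CD8 T cells. Together they were named by 41 BATF control peaks over 329 kb, which cover 10.9% of that span, and by 19 peaks over 261 kb with RA, which cover 3.39%. Of the 41, 2 intergenic peaks between the genes named both. The strongest, at chr9:32744498-32746522 in intron 6 of Ets1, had 93 fragments and a fold of 14.8 in the control and 52 fragments and a fold of 11.0 with RA, or 4.02 and 3.17 FPM, a ratio of 0.787 (0.549 to 1.12). The peak with the next highest fragment count, at chr9:32661525-32662018, had 80 fragments but a fold of 6.15 over an IgG level 4.19 times background. It had 48 fragments and a fold of 5.98 with RA. The authors' annotation classed it as intergenic, although it lies inside Ets1 as the RefSeq table bounds the gene. At the Ets1 promoter, a control peak at chr9:32695077-32696352 had 41 fragments and a fold of 5.93 and shared no base with an RA peak. The nearest RA peak, at chr9:32697616-32698150 and also classed as promoter, had 27 fragments and a fold of 5.27 and overlapped the neighbouring control peak.

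At Fli1, the strongest BATF peak, at chr9:32533673-32534586 in intron 1, had 46 fragments and a fold of 10.1 in the control. With RA this site had 30 fragments and a fold of 8.46, a ratio of FPM of 0.918 (0.559 to 1.49). The RA peak of highest fold lay elsewhere in the same intron, at chr9:32487080-32488312. It had fewer fragments, 26, and a fold of 8.92. The promoter peak of highest fold, at chr9:32539302-32540684, had 38 fragments and a fold of 4.82 in the control and 15 fragments and a fold of 3.69 with RA. Of all 43 pairs of peaks that shared bases at the 10 genes, the interval of the ratio of FPM lay below 1 at a single pair, at chr9:32506759-32507971 in the same intron of Fli1. It had 49 control and 20 RA fragments, a ratio of 0.574 (0.323 to 0.984). Over all such pairs in the genome 8.66% had an interval below 1, and 1 of 43 is 2.33%. The 45 control peaks without an overlapping RA peak have no ratio, so these shares cover only sites called in both conditions. At Ets1, 9 of 25 control peaks shared bases with an RA peak and 21 had one within 5 kb. At Fli1, the numbers were 6 and 13 of 18.

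**Figure D3:**
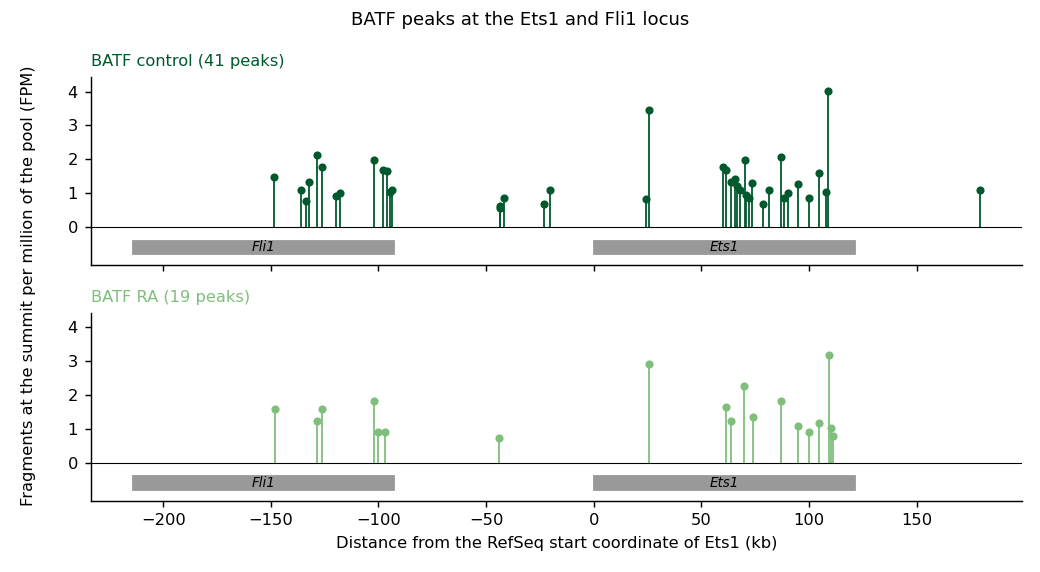
Summit position of each BATF peak assigned to Ets1 or Fli1 (horizontal axis, kb from the RefSeq start coordinate of Ets1; grey bars, the genes) against FPM at the summit (vertical axis), without and with RA. The tallest summits of the control, 4.02 and 3.46 FPM, are also the tallest with RA, while many of the lower ones have no counterpart.

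Elf1, an ETS factor of lymphoid cells, had 10 BATF control peaks and 8 with RA. Its strongest peak, at chr14:79515266-79518456, was classed as promoter and lay in intron 1 of the longer isoforms. It had 70 fragments (3.03 FPM) and a fold of 14.0 in the control, and 43 fragments (2.62 FPM) and a fold of 11.3 with RA. The most distant peak, 86351 bp from the gene, at chr14:79394331-79394823, had a fold of 8.75 and was assigned to 7 genes at once, so its link to Elf1 is only one of position. Ets2, at chr16:95702407-95721049, and Etv6, a repressor of the ETS family at chr6:134035700-134270158, had few peaks. The strongest at Ets2 in the control, at chr16:95815958-95816320 with a fold of 5.76, lay 94909 bp from the gene and had no overlapping RA peak. The strongest with RA, at chr16:95750314-95750653, had a fold of 5.95. Its promoter peak had 26 fragments and a fold of 5.51 in the control and 21 fragments and a fold of 4.78 with RA. Etv6 had a promoter peak with 31 control and 25 RA fragments and folds of 5.95 and 6.24. Its only other peak, at chr6:134048002-134048310 in intron 1, had folds of 8.44 and 6.65, so both of its control peaks were found with RA.

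Gata3 lies at chr2:9857078-9887953 and had 5 BATF control peaks, all inside the gene. The strongest, at chr2:9867119-9867865 in an intron, had 86 fragments (3.72 FPM) and a fold of 10.7. With RA it had 60 fragments (3.65 FPM) and a fold of 10.1, a ratio of 0.982 (0.694 to 1.38). The promoter peak of highest fold, at chr2:9878534-9879661, had 26 fragments and a fold of 5.51 and no overlapping RA peak. The neighbouring control promoter peak, at chr2:9875908-9878255, had 38 fragments and the RA peak inside it, at chr2:9876938-9877308, had 16 fragments and a fold of 4.38. Of the 5 control peaks, 2 shared bases with an RA peak and all 5 had one within 5 kb.

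Most BATF peaks at these genes were not at promoters. Of the 88 control peaks, 49 were classed as intron, 19 as intergenic, 18 as promoter and 2 as exon. The adjacent genes Ets1 and Fli1 were named by 41 of the 88, so pooled shares weigh that locus heavily. Promoter peaks were 2 of 25 at Ets1 and 3 of 18 at Fli1, but 3 of 9 at Runx2 and 2 of 5 at Gata3. Promoters held 20.5% (Wilson interval 13.3 to 30.03), against 58.7% of all BATF control peaks. With RA they held 14 of 50, or 28.0% (17.5 to 41.7), against 64.6% of all. Introns held 55.7% of the control peaks, against 20.1% of all. The peaks were of ordinary strength, with a median fold of 5.19 against 5.40 over the whole list and a median of 29 fragments against 31, and with a median length of 783 bp against 609 bp. By position, 71 of the 90 assignments of control peaks to genes lay inside the gene and 19 lay more than 10 kb from it.

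Whether a BATF control peak was found again with RA depended on the distance allowed. Within 5 kb, 76 of the 88 (86.4%, 77.7 to 92.0) had an RA peak, more than the 69.9% of all BATF control peaks. When a base had to be shared, 43 had one (48.9%, 38.7 to 59.1), fewer than the 54.4% of all and with an interval that included that value. Peaks at these genes are dense, and 33 peaks had an RA neighbour within 5 kb that did not overlap them. The same RA peak could serve several control peaks, which the interval of the share within 5 kb does not take into account. By gene, the overlapping share ran from 8 of 9 at Runx2, and all of the 1 at Cbfb and 2 at Etv6, to 1 of 4 at Runx1. By class it was 12 of 18 (66.7%) at promoters, 21 of 49 (42.9%) in introns and 8 of 19 (42.1%) in intergenic sequence, near the 61.2%, 41.3% and 47.9% of all BATF control peaks of these classes. Conversely, all 50 RA peaks had a control peak within 5 kb, as did 96.3% of all BATF RA peaks, and 46 (92%) shared bases with one, as did 93.6% of all.

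The peaks without an overlapping RA peak were the weaker and shorter ones. Their median length was 409 bp, against 1125 bp for those with one, and 430 bp against 843 bp over the whole list. Their median fold was 4.28 and their median fragment count 24, against 5.95 and 38 for those with one, and over the whole list the same medians were 4.52 and 24 against 6.72 and 39. To set the depths level, the summit fragments and IgG level of each control peak were scaled to the depth of the RA pool, leaving out counting error. Of the 88 peaks, 80 still reached the p-value of 1e-05 after this scaling (95.1% of all control peaks did). Of those 80, 42 (52.5%, 41.7 to 63.1) shared bases with an RA peak. Over all peaks that reached the p-value after scaling the share was 56.7%. The 38 others comprised 9 assignments at Fli1, 14 at Ets1, 6 at Runx3, 4 at Elf1, 3 at Gata3, 2 at Runx1 and 1 each at Runx2 and Ets2, with 2 of them counted at both Ets1 and Fli1. The 3 of highest fold were a peak at chr4:135203321-135203565 (fold 7.90) and the Fli1 intron peaks at chr9:32537856-32538648 (7.43) and at chr9:32503861-32504870 (6.503). The first was assigned to 2 genes, of which Runx3 lay 25331 bp away. At depth equal to that of the RA pool the 3 peaks would have had 21.3, 27.7 and 22.03 fragments, where 10, 13 and 12 sufficed for a call. Others of the 38 were at the limit, such as chr9:32612975-32613359 with 11.4 scaled fragments where 11 were needed. With 1 pool per condition the scaling has no replicate check.

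**Figure D4:**
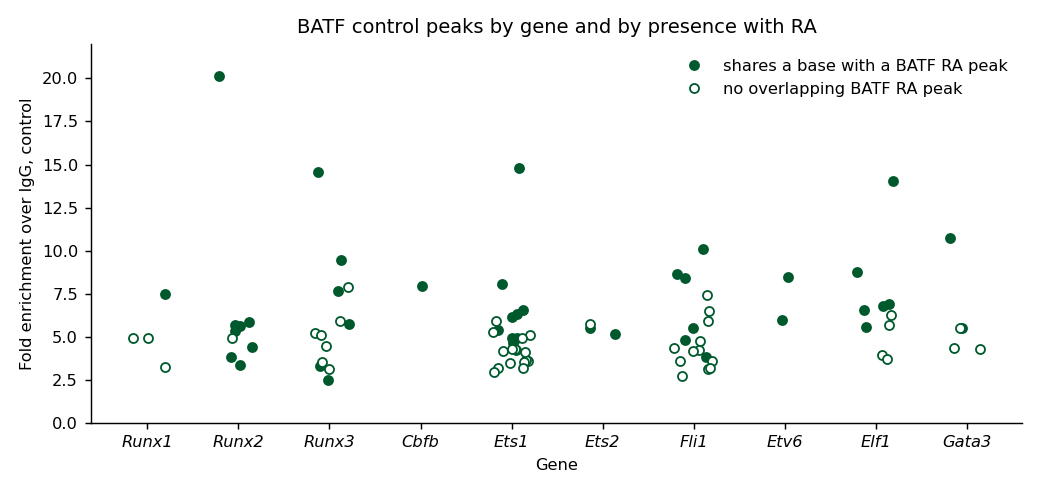
Fold enrichment over IgG of each BATF control peak (vertical axis) by gene (horizontal axis, points spread sideways for clarity), filled where the peak shares a base with a BATF RA peak and open where it does not. No peak with a fold above 7.90 is open, and Runx2, Cbfb and Etv6 together have 1 open point.

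Where peaks overlapped, RA had the lower fold at 30 of 43 pairs (69.8%, 54.9 to 81.4), against 75.5% of all pairs. FPM were lower in 27 (62.8%, 47.9 to 75.6), against 77.1% of all. Fold is a ratio of pileup plus 1 over IgG level plus 1, so an unchanged site has a lower fold at lower depth. The fold was not adjusted for the lower depth of the RA pool, whereas FPM are scaled to it. The median ratio of FPM was 0.919 at these genes and 0.838 over all 8605 pairs, and the median fold went from 5.95 to 5.41 against 6.72 to 5.40. Among the 76 pairs formed within 5 kb, RA had the lower fold at 42 (55.3%, 44.1 to 65.9), against 66.9% of all such pairs. These pairs include neighbours at dense loci that are not the same site. Only control peaks with a called RA peak could enter a pair, so sites not called with RA have no ratio.

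**Figure D5:**
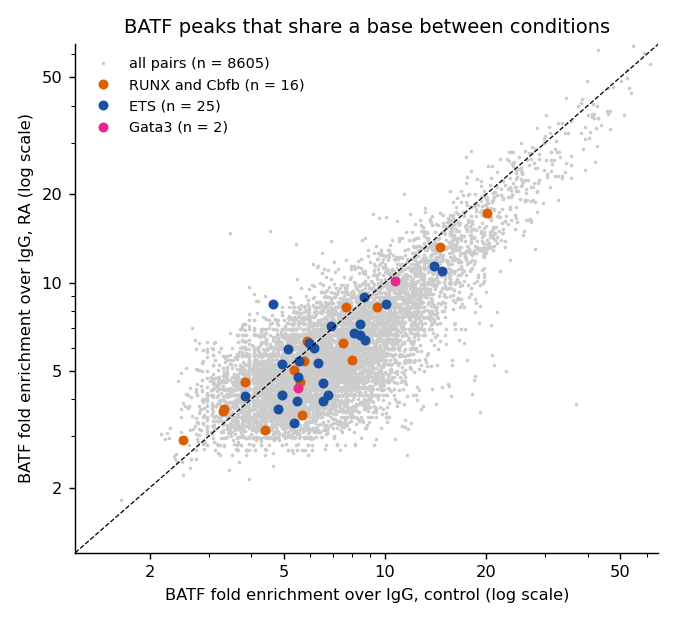
BATF fold enrichment over IgG in the control (horizontal axis, log scale) and with RA (vertical axis, log scale) for peaks that share a base, with all pairs in grey, the 10 genes in colour and equal values on the dashed line. Of the 43 coloured points 30 lie below the line, and the highest is Runx2 at 20.1 and 17.3. Fold was not adjusted for the lower depth of the RA pool.

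The remaining ETS and GATA genes and the partners of these factors, 35 genes in all, had 40 BATF control peaks at 16 genes and 34 BATF peaks with RA at 16, where 48.6% and 38.3% of all protein-coding genes had one. Of the 21 other ETS genes, 11 had a BATF control peak, and of the 5 other GATA genes none had, while Gata5 had 1 with RA. The median number of BATF control peaks per gene was 1 over the other ETS genes and 0 over the other GATA genes. Elf2, Erf and Tle3, a corepressor of RUNX factors, had the most, 5 each in the control and 5, 5 and 4 with RA. RARα control peaks were found at 5 of the 35 genes, where 7.18% of all protein-coding genes had one. They lay at Etv3 (2), Gabpa (1), Elf4 (1), Cbfa2t3 (1) and Tle1 (1). Of these 6 peaks, 5 overlapped a BATF control peak, as did 53.4% of all RARα control peaks. At Etv3, an ETS repressor, the peaks had folds of 4.10 and 3.99, at the Gabpa promoter 2.77, in intron 1 of Elf4 2.85 and near Cbfa2t3 2.52. The peak near Tle1, with a fold of 2.58, lay in a LINE repeat and had no BATF peak near it. RARα peaks with RA were found at 2 of the 35 genes, Elk3 and Zfpm2, where 3.19% of all protein-coding genes had one. Their folds were 3.29 each, and neither peak had a BATF peak of either condition within 5 kb. The nearest, in the control list, were 34546 bp and 797844 bp away.

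Beside 3 other sets of T cell factors, the median number of BATF control peaks per gene was 7 at the 10 genes, 5.5 at the 6 Ikaros family genes and Myb, 3 at 13 AP-1 and BATF family genes and 2 at 9 IRF genes. The 10 genes are a chosen part of their families, whereas the other sets include genes without a peak, and the medians were not tested against each other. The share of BATF control peaks that overlapped an RA peak was 48.9% at the 10 genes, 54.5% (40.1 to 68.3) at the AP-1 family, 48.0% (30.03 to 66.5) at the IRF family and 32.5% (20.1 to 48.0) at the Ikaros family and Myb. The intervals of these shares overlapped. In the Ikaros group the most control peaks were at Ikzf1, with 16 control and 3 RA peaks, and Ikzf3, with 12 and 2. Myb had 9 and 7, and overlap was not counted by gene in this group. The genes whose peak counts over the 4 lists were closest to those of Ets1, by Euclidean distance, were Atxn1 (3.16), Grap2 (4.12) and Akap13 (4.58). Each of them had a RARα control peak, which Ets1 did not.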

How the data were processed

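The authors mapped paired-end reads to mm10 with Bowtie2 and, after duplicate removal, ran MACS 2.2.7.1 with IgG as control (effective genome size 1870000000 bp), requiring a p-value of 0.001 in the RARα lists and of 1e-05 in the BATF lists. Summit fragments were deposited as a pileup signal, which only the BATF control list held in scaled form (0.9875 per fragment), and whole fragments were recovered to within 0.00504. The deposited fold enrichment is a ratio of pileup plus 1 over IgG level plus 1, from which the IgG level was recovered. The authors' p-value and q-value are on the -log10 scale, and recomputed p-values were within 0.02 for at least 99.8% of peaks in each list. The q-values served only as an alternative threshold. HOMER is also named by the submitters' processing notes and, for peaks and motifs, by the study's methods.

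The 10 genes and the comparison lists were chosen with earlier results of these data known. Named peaks were, per gene, every RARα peak and the BATF peak and BATF promoter peak of highest fold in each condition. Others were chosen after their values were seen. Gene positions came from the RefSeq table for GRCm38.p6, to which mm10 corresponds, and at least 99.2% of gene names matched. Peaks were paired by nearest midpoint within 5 kb or, where stated, by a shared base. Shares carry Wilson intervals, fragment counts exact Poisson intervals, and ratios exact conditional intervals, at 95%. Scripts ran under Python 3.11.15 (scipy 1.17.1, matplotlib 3.10.9, pandas 2.3.3, numpy 2.4.6). Pairing, recovery and intervals were tested on simulated data. Motifs were not analysed here, and 1 marker gene is not reported here.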

Additional observations from a re-analysis of the deposited data

How the results depend on the processing

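No paired analysis was possible because each condition gave a single list from merged alignments. Of 81 values recomputed under an alternative, 69 were within the interval of the reported share or within 1.5 times the reported count, and 12 moved. The RARα control peaks at the 10 genes fell from 5 to 3 at a p-value of 1e-05, to 2 at a q-value of 0.05 and to 1, at Runx3 alone, at a fold of at least 5. They also numbered 2 when only peaks within 10 kb of the gene were counted, with or without the authors' gene names. At a fold of at least 5 there were 47 BATF control and 28 BATF RA peaks and 1 gene with a RARα control peak, while all 10 genes still had BATF peaks in both lists. The share of BATF control peaks with an RA peak was 60.2% within 1 kb, 48.9% with a shared base and 100% at promoters alone within 5 kb, and the share of pairs with the lower fold with RA was 69.8% with a shared base. Why these values moved was not tested. The alternative of counting only peaks that name 1 gene was chosen after seeing the data. Of the alternatives, only the one that counted any peak within 10 kb of a gene could have added a RARα peak with RA at the 10 genes, and it added none. Peaks of the RARα control list had a median of 13 fragments, so single calls carry wide counting intervals.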

Other observations

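Genes with many BATF control peaks more often had a RARα control peak as well, a count made after the values were seen. The share with a RARα peak was 5.47% of 6139 genes with 1 BATF control peak, 14.2% of 4664 genes with 2 to 4, 37.8% of 971 genes with 5 to 9 and 63.8% of 138 genes with 10 or more. Longer genes can be named by more peaks of either kind, and gene length was not adjusted for. Of the 14 genes with 18 or more, such as Foxp1 (26 BATF and 4 RARα peaks), Akap13 (24 and 2) and Sema4d (20 and 4), 12 had a RARα control peak, and the 2 without were Ets1 and Fli1. A RARα peak with RA was also more frequent at genes with more BATF control peaks, at 2.38%, 4.03%, 8.14% and 12.3% of the same groups of genes in that order, and at none of the 14. Of the 4 members with 10 or more, Runx3 had RARα peaks and Ets1, Fli1 and Elf1 had none.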
